A study of Mus musculus with 8 samples.

Results

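Osteoblasts, the cells that lay down bone, arise from mesenchymal stem cells (MSCs) through a small set of DNA-binding proteins. Runx2 is the runt-domain factor without which no osteoblasts form, and Sp7 (osterix) is the zinc-finger factor that acts after it. Dlx3, Dlx5, Msx1 and Msx2 are homeobox factors that respond to bone morphogenetic protein (BMP) signals and bind related sites, with the Dlx proteins mostly activating and the Msx proteins mostly repressing transcription. Twist1 and Twist2 are basic helix-loop-helix (bHLH) factors known to hold Runx2 back in early progenitors. These 8 genes were taken by their symbols from a count table of 53465 gene identifiers, and a row was found for each of the 8. All 8 had enough counts to be among the 14369 genes tested.

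The counts came from RNA-seq of MSCs, which can also form fat and cartilage, isolated from the bones of C57BL6/N mice of 3 to 5 months and cultured at 2% oxygen (hypoxia, 4 samples) or 21% oxygen (normoxia, 4 samples), in both cases with 5% CO2 at 37 °C in control α-MEM medium. The design addresses what long exposure to a high oxygen level does to stem cell fate. No osteogenic inducer is named for these samples, so the levels are those of MSCs in growth medium. The cells were sorted as CD45-/Ter-119-/Sca-1+/CD140a+, and the study divided the sorted cells between both oxygen levels. The 4 samples of each group are described as independent biological replicates, but how many mice gave each sample is not given in the sources used here. The samples are bulk populations, in which fewer expressing cells and less RNA per cell cannot be told apart.

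The samples held between 12898291 and 25132141 counts, and the sample at the top of that range, hypoxia replicate 1, was the only one above 13433824. Levels are given as CPM, the counts of a gene scaled to a common library size. A floor of 3 counts equals 0.119 to 0.233 CPM at these depths and covers counting error only. Ly6a (Sca-1) and Pdgfra (CD140a), the markers of the sort, averaged 434 and 175 CPM in hypoxia and 393 and 206 CPM in normoxia. Ptprc, which encodes CD45, still held 140 to 263 counts per sample, and the 10 blood cell markers summed to 452 to 905 CPM in hypoxia and 600 to 1129 CPM in normoxia, while the erythroid genes Hba-a1 and Hbb-bs had 0 counts. The sort markers thus fit the label of MSCs, and blood cell transcripts were present in both groups at overlapping levels.

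Sp7, Runx2 and Dlx3 were lower in normoxia than in hypoxia, and Dlx5 passed the test as lower only in fits that paired the samples. Neither Twist gene passed without pairing or with pairing alone, and Twist1 passed as higher once a correction for GC content and length was added. Msx2 was on average higher in normoxia and passed when the samples were paired or when hypoxia replicate 1 was left out. The tests were made with limma-trend on log2 CPM across all 14369 genes, and a gene was called when its Benjamini-Hochberg adjusted p was under 0.05. Changes are given as normoxia minus hypoxia on the log2 CPM scale. With 3 factors lower and 0 higher, 37.5% of the 8 were called, close to the 34.6% of all genes called (16.5% lower and 18.0% higher). The median change of the 8 was -0.19 against 0.0048 for all tested genes. With samples of the same number treated as pairs, 4 factors were lower and 1 was higher, where 46.0% of all genes were called (22.7% lower and 23.3% higher). Adding a correction for the GC content and length of transcripts to the pairing left 2 lower (Runx2 and Sp7) and 3 higher (Msx1, Msx2 and Twist1), where 43.2% of all genes were called (21.5% lower and 21.7% higher). The groups did not overlap for 4 of 8 factors, all lower in normoxia, where 32.6% of all genes did not overlap (15.5% lower and 17.1% higher). Normoxia was the lower in 4 of 4 pairs for 5 factors and the higher for 1, against 26.8% and 27.7% of all genes.

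**Figure D1:**
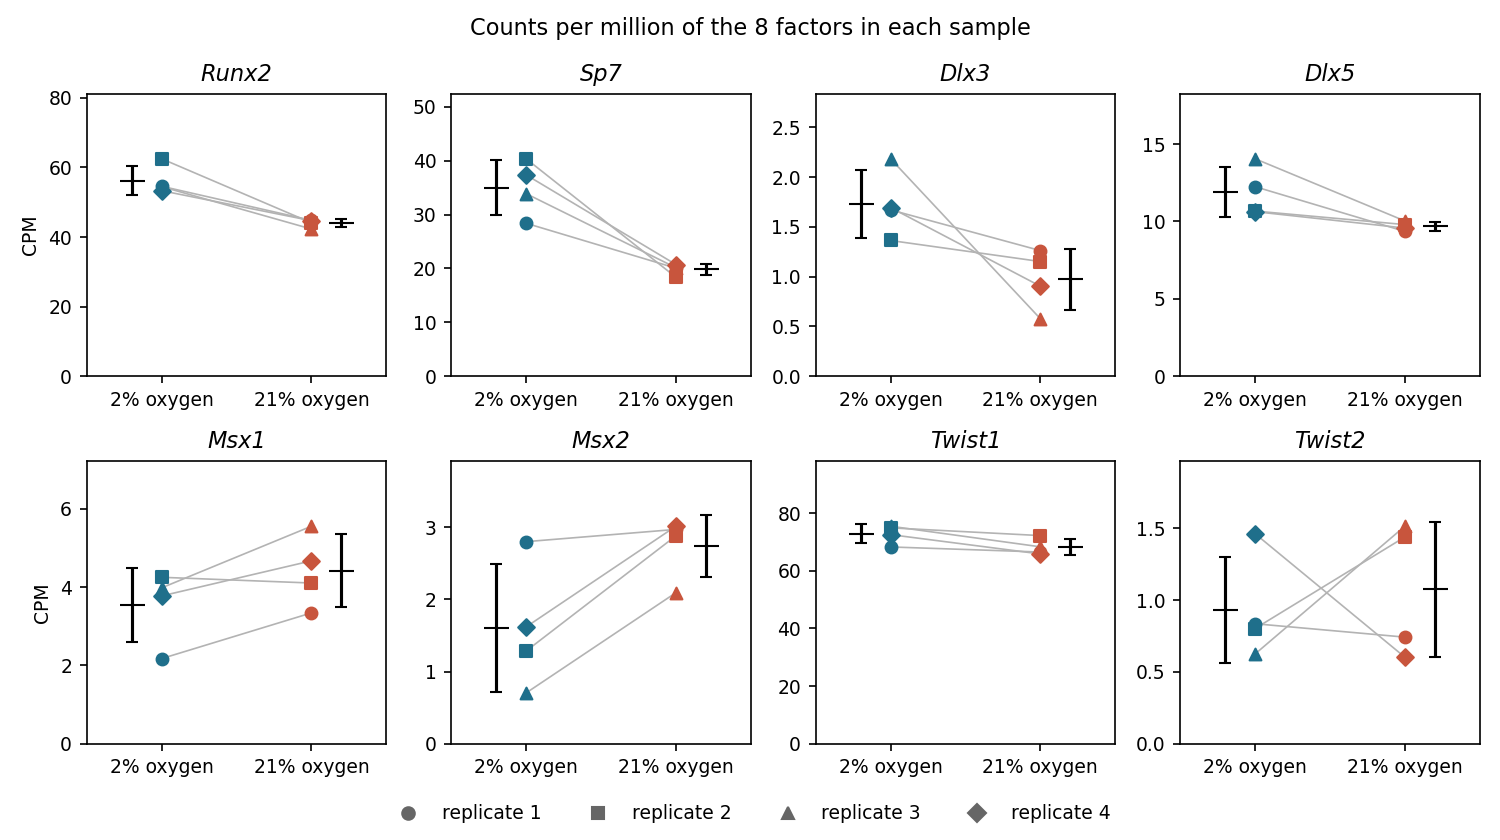
CPM of each factor (vertical axes, from 0, scaled per gene) in each sample at 2% and 21% oxygen. Symbols mark the replicate number, grey lines join samples of the same number, and bars give the mean and SD of 4 samples. Runx2, Sp7, Dlx3 and Dlx5 fall without overlap between the groups, whereas the Msx and Twist genes overlap.

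Sp7 showed the lowest adjusted p of the 8 factors. The gene lies on the minus strand of chromosome 15 (GRCm38, chr15:102356606-102367182). Its level was 28.4, 40.4, 33.9 and 37.4 CPM in hypoxia replicates 1 to 4 and 20.1, 18.4, 20.1 and 20.7 CPM in normoxia replicates 1 to 4. The lowest hypoxia sample stood well above the highest normoxia sample, and the hypoxia samples were the more spread out. The mean fell from 35.0 ± 5.14 to 19.8 ± 1.01 CPM (SD, n = 4), a log2 change of -0.80 (SE 0.10, limma-trend adjusted p = 0.00021). Within the numbered pairs the log2 changes were -0.50, -1.13, -0.74 and -0.84.

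Runx2, on the minus strand of chromosome 17 (chr17:44495987-44814797), fell by less. Hypoxia replicates 1 to 4 had 54.6, 62.5, 54.5 and 53.3 CPM, and normoxia replicates 1 to 4 had 44.8, 44.1, 42.3 and 44.7 CPM. All hypoxia samples were above all normoxia samples, with hypoxia replicate 2 apart from the other 3. The mean went from 56.2 ± 4.22 to 44.0 ± 1.16 CPM (SD, n = 4), a log2 change of -0.35 (SE 0.067, limma-trend adjusted p = 0.0018). The antisense gene Runx2os1 shares 5.87% of the exon bases of Runx2 but had 53 counts over all samples, where Runx2 had between 586 and 1306 in each. Runx2 and Sp7 were past the threshold in the same direction in 22 of 22 alternative fits each.

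Runx2 binds its own promoter in bone cells, and the window around its annotated distal start was therefore searched for the RUNX word ACCACA on either strand. The RefSeq table held a window of 300 bases (250 before and 50 after the start, GRCm38.p6) for 5 of the 8 factors, namely Runx2, Msx1, Msx2, Twist1 and Twist2. For Sp7, Dlx3 and Dlx5 there was no entry. The Runx2 window held the word 3 times, and 16.8% of 32851 windows held it at least once and 0.183% at least 3 times. The stretches that hold it are shown 5′ to 3′ on the gene's strand with the word in capitals. The first lies upstream of the RefSeq start and the second downstream of it. Both lie inside the span of Runx2 given above, which begins further upstream than the RefSeq start.
Runx2, chr17:44814686-44814715, minus strand: ggtcacaaACCACAtgattctgtctctcca
Runx2, chr17:44814583-44814612, minus strand: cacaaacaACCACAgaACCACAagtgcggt
A match of letters describes the sequence and is not a binding site, and these counts cannot show which of the starts of Runx2 was in use.

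The Dlx genes were both lower in normoxia in every pair. Dlx3 (chr11:95120119-95125296, plus strand) is a distal-less factor of bone, tooth and skin, and it was thinly expressed here. It had 1.67, 1.36, 2.19 and 1.70 CPM in hypoxia and 1.26, 1.15, 0.577 and 0.904 CPM in normoxia, which rest on 8 to 40 counts per sample. The groups did not overlap, although the highest normoxia sample came close to the lowest hypoxia sample. The mean fell from 1.73 ± 0.340 to 0.974 ± 0.304 CPM (SD, n = 4), a log2 change of -0.74 (SE 0.25, limma-trend adjusted p = 0.037). This call was lost in 9 of 22 alternative fits. Among them were the fits without hypoxia replicate 1, 3 or 4 (adjusted p = 0.054, 0.11 and 0.074) and without normoxia replicate 3 or 4 (adjusted p = 0.10 and 0.072), and the paired fit corrected for GC content and length (-0.59, adjusted p = 0.058).

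Dlx5 (chr6:6877805-6882085, minus strand), a BMP-induced activator of Runx2 and Sp7 in osteoblast precursors, was the more abundant. Its level was 12.2, 10.7, 14.1 and 10.6 CPM in hypoxia and 9.36, 9.80, 10.03 and 9.57 CPM in normoxia. No value was shared between the groups, but the lowest hypoxia samples lay just above the normoxia samples. The mean went from 11.9 ± 1.62 to 9.69 ± 0.29 CPM (SD, n = 4), a log2 change of -0.28 (95% confidence interval -0.52 to -0.040) that did not pass the test (limma-trend adjusted p = 0.069). With the replicate block the adjusted p was 0.034. When GC content and length were corrected as well, the change was -0.12 (adjusted p = 0.38).

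Msx2 was the 1 member that went up in the paired fit. Msx2 (chr13:53466884-53473074, minus strand) is a homeobox repressor expressed in osteoprogenitors and in the sutures of the skull. Its level was 2.80, 1.28, 0.703 and 1.62 CPM in hypoxia and 2.97, 2.88, 2.09 and 3.01 CPM in normoxia. Hypoxia replicate 1 lay among the normoxia samples, and the other 3 hypoxia samples lay below all of them. The mean went from 1.60 ± 0.884 to 2.74 ± 0.435 CPM (SD, n = 4), a log2 change of 0.82 (SE 0.31, limma-trend adjusted p = 0.057). With the replicate block the adjusted p was 0.0032, and without hypoxia replicate 1 the unpaired change was 1.10 (adjusted p = 0.0053). Counting-model tests gave higher adjusted p values, 0.13 with edgeR and 0.11 with DESeq2. The values rest on 9 to 67 counts per sample.

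Msx1 (chr5:37820485-37824583, minus strand), a repressor that keeps cranial and dental mesenchyme proliferating, overlapped between the groups. It had 2.17, 4.25, 3.98 and 3.78 CPM in hypoxia and 3.34, 4.11, 5.56 and 4.67 CPM in normoxia. Hypoxia replicate 1 was the lowest of all samples for Msx1 and the highest of its group for Msx2. The log2 change was 0.32 (95% confidence interval -0.16 to 0.80, limma-trend adjusted p = 0.29), and it was 0.53 (adjusted p = 0.0088) in the paired fit corrected for GC content and length.

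The Twist genes showed no change that passed the test in the unpaired or the paired fit. Twist1 (chr12:33957671-33959829, plus strand) binds the DNA-binding domain of Runx2 and keeps mesenchymal cells undifferentiated. It had 68.3, 74.9, 75.5 and 72.6 CPM in hypoxia and 66.5, 72.2, 68.3 and 65.9 CPM in normoxia, with overlapping groups. The mean was 72.8 ± 3.27 in hypoxia and 68.2 ± 2.86 CPM in normoxia (SD, n = 4). The log2 change of -0.093 had a 95% confidence interval from -0.22 to 0.036 and did not pass the test (limma-trend adjusted p = 0.25). The direction turned in the paired fit corrected for GC content and length, where the change was 0.14 (adjusted p = 0.026). Of the 8 transcripts, that of Twist1 has the highest GC content, 59.3%.

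Twist2 (chr1:91801461-91848028, plus strand), its paralog in dermis and bone, was near the lower end of what these depths can measure. It had 0.836, 0.802, 0.625 and 1.46 CPM in hypoxia and 0.743, 1.44, 1.52 and 0.603 CPM in normoxia, from 8 to 21 counts per sample. Both groups covered nearly the same range. The log2 change was 0.14, with a 95% confidence interval from -0.54 to 0.83 (limma-trend adjusted p = 0.76), so a change was not detectable at this depth. An antisense gene, Gm29100, covers 46.5% of the Twist2 exon bases and had 10 counts in all. Whether the counting used strand is not stated.

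**Figure D2:**
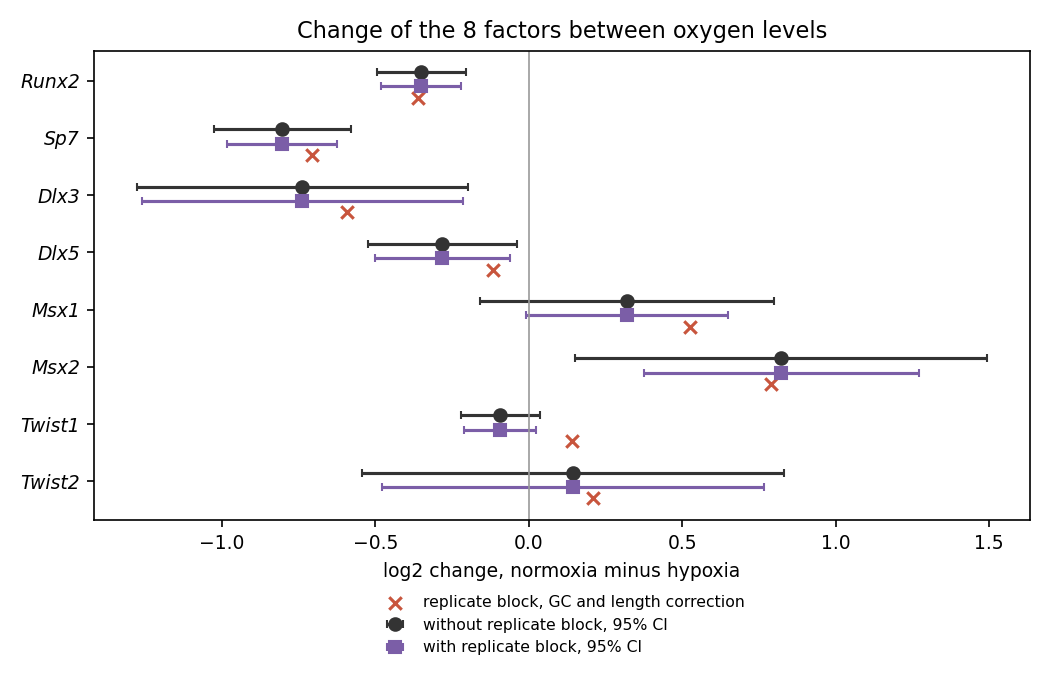
Log2 change of each factor from hypoxia to normoxia (horizontal axis), with 95% confidence intervals, without pairing (circles) and with the replicate block (squares), and the paired estimate corrected for GC content and length (crosses, no interval drawn). Sp7, Runx2, Dlx3 and Dlx5 lie below 0 in all 3 fits, Msx1 and Msx2 above 0, and Twist1 changes side with the correction.

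The promoter windows of Msx1, Twist1 and Twist2 were searched for the core of the hypoxia response element, ACGTG or GCGTG on either strand, which the HIF factors recognise. Msx1 and Twist1 each held it 1 time and Twist2, Msx2 and Runx2 held none. Over all windows 43.8% held it, so neither its presence nor its absence sets a factor apart. The 250 bases upstream of each start are shown 5′ to 3′ with the core in capitals, for the 2 factors that hold it and for the paralog of Twist1 that does not.
Msx1, chr5:37824586-37824835, minus strand: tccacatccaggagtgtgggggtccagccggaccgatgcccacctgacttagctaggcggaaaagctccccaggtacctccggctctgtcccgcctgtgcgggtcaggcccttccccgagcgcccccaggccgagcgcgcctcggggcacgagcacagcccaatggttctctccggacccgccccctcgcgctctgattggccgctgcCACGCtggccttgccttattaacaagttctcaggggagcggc
Twist1, chr12:33957421-33957670, plus strand: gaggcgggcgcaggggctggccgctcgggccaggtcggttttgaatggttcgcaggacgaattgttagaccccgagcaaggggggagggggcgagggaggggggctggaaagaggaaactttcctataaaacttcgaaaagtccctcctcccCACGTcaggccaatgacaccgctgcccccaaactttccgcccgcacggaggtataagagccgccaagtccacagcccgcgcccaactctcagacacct
Twist2, chr1:91801211-91801460, plus strand: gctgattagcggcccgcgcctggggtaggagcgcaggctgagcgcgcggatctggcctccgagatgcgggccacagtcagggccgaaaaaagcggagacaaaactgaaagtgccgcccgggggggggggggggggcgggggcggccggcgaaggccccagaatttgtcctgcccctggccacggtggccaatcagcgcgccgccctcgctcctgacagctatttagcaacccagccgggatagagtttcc
The capitals read CACGC in Msx1 and CACGT in Twist1, both the reverse strand of the searched cores. Of the 5 factors with a window, only Msx2 held a homeodomain word (TAATTA or TAATTG, either strand). Among all windows, 12.4% hold such a word, which Msx and Dlx proteins bind. The stretch that holds it is shown with the word in capitals. It lies upstream of the RefSeq start but inside the span of Msx2 given above, which begins further upstream than that start.
Msx2, chr13:53472946-53472975, minus strand: tgctcctgTAATTAactcctaatttatttc
The E-box CANNTG, the word that Twist dimers bind, was found in the windows of Runx2, Msx1 and Msx2, and 72.3% of all windows hold it.

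When CPM were divided by the merged exon length of each gene, Twist1 was the most abundant factor in both groups, at 44.7 ± 2.01 CPM per kb in hypoxia and 41.9 ± 1.76 in normoxia (SD, n = 4). In hypoxia Sp7 followed at 10.3 CPM per kb, then Runx2 at 6.36 and Dlx5 at 5.26, whose samples overlapped, and then Msx1 at 1.14, Dlx3 at 0.663, Msx2 at 0.488 and Twist2 at 0.294, each of which overlapped with the next. In normoxia Sp7 (5.83), Runx2 (4.97), Dlx5 (4.28), Msx1 (1.43) and Msx2 (0.836) followed Twist1 without overlap between neighbours, and Dlx3 (0.374) and Twist2 (0.339) overlapped. Msx2 and Dlx3 thus changed places in the order of means. The order of Sp7, Runx2 and Dlx5 depends on the length used, since with the longest transcript Dlx5 (6.81), Runx2 (6.80) and Sp7 (6.40) overlapped in normoxia.

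**Figure D3:**
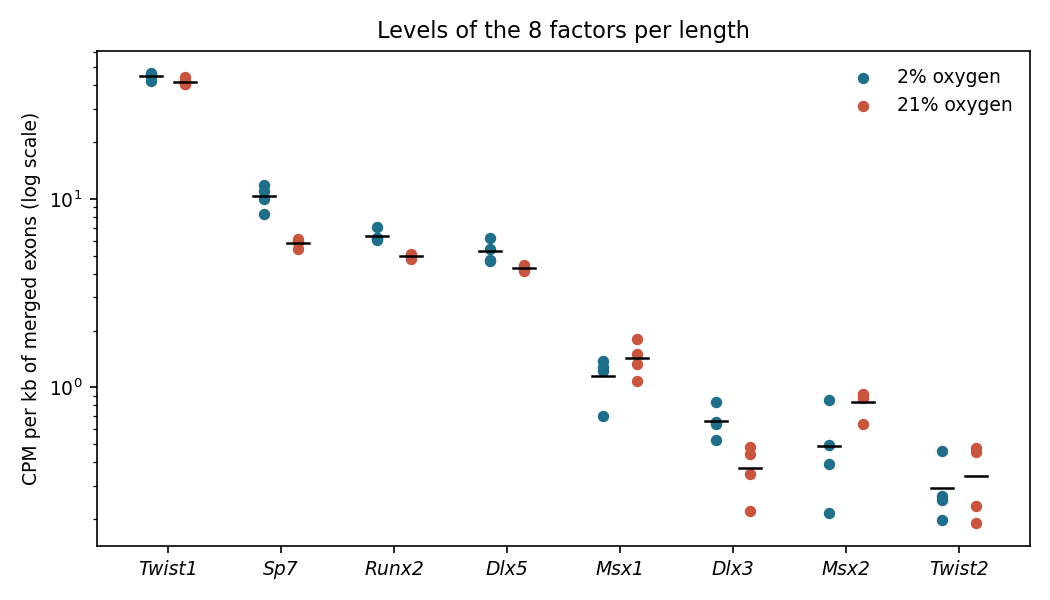
CPM per kb of merged exons (log scale) of each factor in each sample, with hypoxia on the left and normoxia on the right of each pair and bars at the means. Twist1 stands above the other 7 factors in both groups, Sp7, Runx2 and Dlx5 lie between 4.13 and 11.9, and the other 4 lie between 0.190 and 1.79.

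Reads of paralogs could be confused where their transcripts are identical, and only exact matches were searched here. Reads placed with mismatches were not examined. The longest identical stretch between the Msx transcripts was 22 bases, and those between Dlx3 and Dlx5 and between Twist1 and Twist2 were 23 bases each, all in the coding sequence and all shorter than the single-end reads that the methods give. They are shown as the longest stretches that each pair shares, with the longest protein-coding transcript of each gene compared. A read longer than such a stretch also holds bases outside it.
Dlx3 and Dlx5: CAAACACAGGTGAAAATCTGGTT
Msx1 and Msx2: TGGAGCGCAAGTTCCGCCAGAA
Twist1 and Twist2: CTGCGCAAGATCATCCCCACGCT

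To compare factors without any scaling between libraries, the ratio of counts was taken within each sample for 6 pairs. The Runx2 to Sp7 ratio, on the log2 scale, was 0.69 ± 0.18 in hypoxia and 1.15 ± 0.083 in normoxia (SD, n = 4), higher in normoxia in 4 of 4 pairs. The Runx2 to Twist1 ratio was -0.37 ± 0.099 in hypoxia and -0.63 ± 0.080 in normoxia, lower in 4 of 4 pairs. Groups did not overlap for either ratio, and each had an exact permutation p of 0.0286 (two-sided, 70 assignments, the smallest possible), or 0.0857 after adjustment over the 6 ratios. At this sample size an adjusted p under 0.05 would have needed 4 ratios at the smallest p.

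The Dlx5 to Msx2 ratio, which sets an activator against a repressor of shared sites, fell from 3.02 ± 0.90 to 1.82 ± 0.28 on the log2 scale, and was lower in normoxia in 4 of 4 pairs (exact permutation p = 0.0571, adjusted p = 0.114). Hypoxia replicate 1 (2.12) lay inside the range of the normoxia samples (1.64 to 2.24), so the groups overlapped. The other ratios did not pass the test and overlapped between the groups, with log2 differences of -0.55 for Dlx3 to Dlx5 (exact permutation p = 0.0857, adjusted p = 0.129), -0.57 for Msx1 to Msx2 (p = 0.371, adjusted p = 0.446) and -0.26 for Twist1 to Twist2 (p = 0.514, adjusted p = 0.514). Twist1 had 79.0 times the counts of Twist2 in hypoxia and 66.0 times in normoxia.

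**Figure D4:**
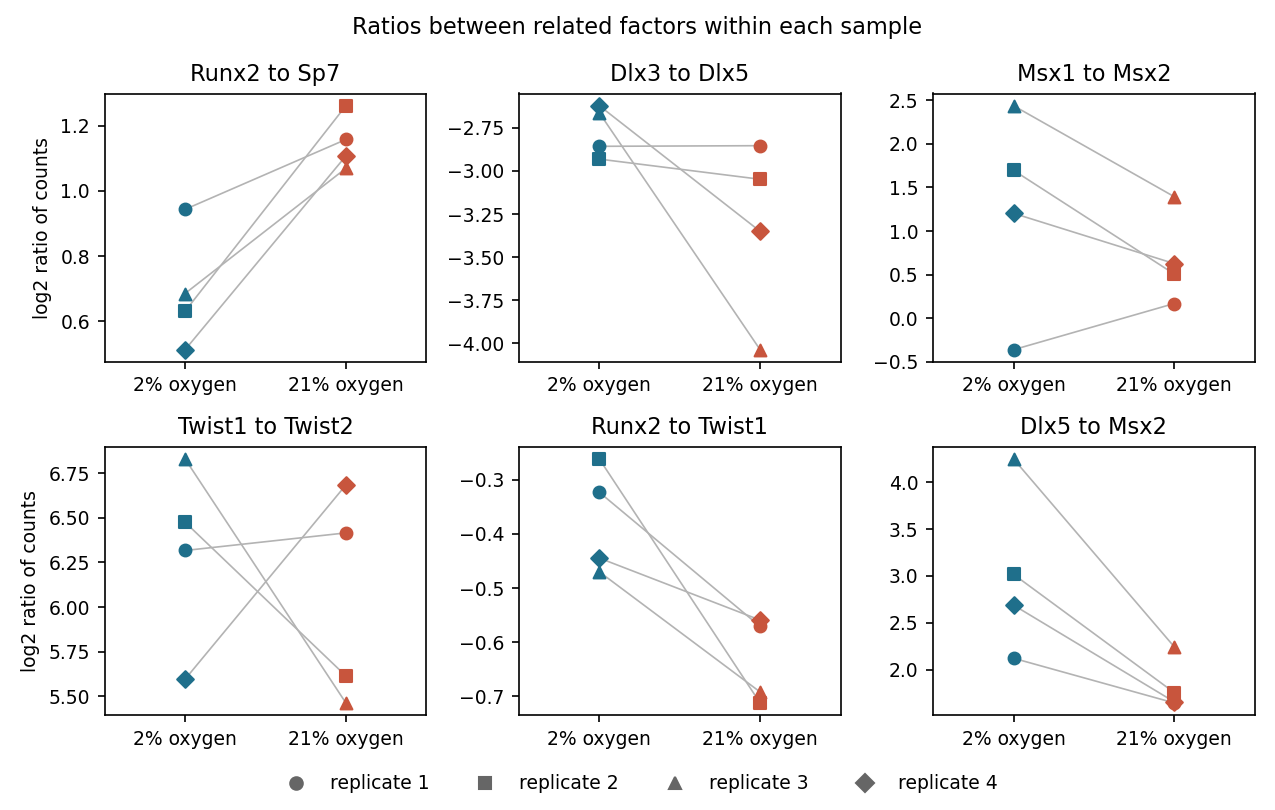
Log2 ratio of counts between factors within each sample at 2% and 21% oxygen (axes do not start at 0). Symbols mark replicate numbers and lines join equal numbers. The Runx2 to Sp7 ratio rises and the Runx2 to Twist1 and Dlx5 to Msx2 ratios drop along all 4 lines.

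Transcripts of genes whose proteins bind or modify Runx2 and Sp7 went both ways. Of 23 tested genes of 24 in this list, 6 were lower, 5 higher and 12 did not pass (median log2 change -0.047), so 47.8% of the tested genes were called where 34.6% of all genes were. Cbfb, the DNA-binding partner of all Runx proteins, fell by 0.26 on the log2 scale (limma-trend adjusted p = 0.0031), from 107 ± 1.60 to 89.2 ± 3.92 CPM (SD, n = 4). Runx1, the paralog known from blood formation, fell by 0.60 (limma-trend adjusted p = 0.0026). Maf, a leucine-zipper cofactor of Runx2, fell by 0.50. Tle1, a Groucho corepressor, rose by 0.58, from 13.7 ± 1.79 to 20.5 ± 0.410 CPM, and Cebpd rose by 0.51. Tle3, also a Groucho corepressor of this list, went the opposite way and fell by 0.24 (limma-trend adjusted p = 0.014), without overlap between the groups.

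Among homeobox and bHLH relatives, 5 of 19 tested genes of 22 were lower, 1 was higher and 13 did not pass (median -0.072), a called share of 31.6% against 34.6% of all genes. The members that fell include the E proteins Tcf3 (-0.41, limma-trend adjusted p = 0.00063) and Tcf4 (-0.28), which dimerise with Twist proteins. Tcf12, another E protein of the list, went the other way (0.15, limma-trend adjusted p = 0.10). It passed as higher with the replicate block (adjusted p = 0.043). Snai2, a zinc-finger repressor of mesenchymal cells, was lower (-0.45, limma-trend adjusted p = 0.013). Zeb1 of the same class of repressors was higher (0.34, adjusted p = 0.0079). With the replicate block 5 were lower and 4 higher, where 46.0% of all genes were called.

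Upstream signals, most of them of the BMP, FGF and hedgehog pathways, had 3 lower, 6 higher and 17 genes that did not pass among 26 tested of 30 (median -0.090), and with the replicate block 6 were lower and 8 higher. The called share without the block, 34.6%, equalled that of all genes. In the fit with the block 46.0% of all genes were called (22.7% lower and 23.3% higher). Grem1 and Nog, both secreted BMP antagonists, went in opposite directions. Grem1 rose from 24.5 ± 4.34 to 59.0 ± 12.2 CPM (SD, n = 4), a log2 change of 1.26 (limma-trend adjusted p = 0.00013). Nog fell from 20.8 ± 2.23 to 14.1 ± 1.34 CPM, a change of -0.55 (adjusted p = 0.0018). The BMP receptor gene Bmpr1b was higher (1.12) and Pth1r, the receptor for parathyroid hormone, was lower (-0.95, adjusted p = 0.00013).

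Genes of the osteoblast itself, several of them known targets of Runx2 or Sp7, went both ways. Of 16 tested of 22, 2 were lower, 6 higher and 8 did not pass (median -0.019), a called share of 50.0% against 34.6% of all genes. With the replicate block 5 were lower and 7 higher, against 46.0% of all genes called. Named after their values were seen, Col1a2 (-0.34, limma-trend adjusted p = 0.0015), Ibsp (-0.61, adjusted p = 6.5e-05) and Omd (-0.43, adjusted p = 7.3e-05) joined the lower genes there. Mmp13 (0.31, limma-trend adjusted p = 8.8e-05) joined the higher genes in the same fit. Without the block both lower genes, named here after their values were seen, were Col1a1 (-0.74), the main collagen of bone matrix, and Alpl (-0.48), the alkaline phosphatase of mineralising cells. The changes with the largest size were rises of Col10a1 (1.68), a collagen of hypertrophic cartilage, Vdr (1.36), the vitamin D receptor, Tnfsf11 (1.34), which encodes RANKL, and Tnfrsf11b (0.85), which encodes its decoy receptor. Tnfrsf11b overlapped between the groups. The other higher genes without the block were Spp1 (0.54, limma-trend adjusted p = 0.0024), without overlap, and Enpp1 (0.43, adjusted p = 0.047), with overlap. The osteocyte genes Sost and Mepe had 0 counts, and Bglap (osteocalcin) had 2 to 16 counts per sample and was not tested.

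**Figure D5:**
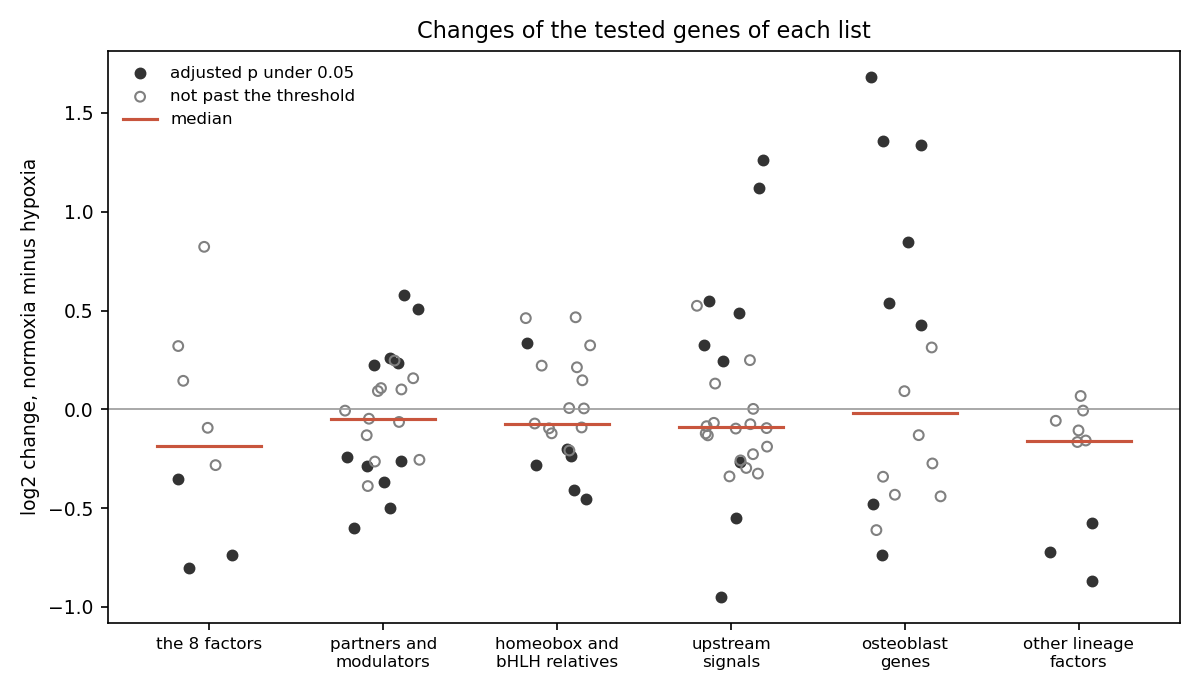
Log2 change from hypoxia to normoxia (vertical axis) of every tested gene of the 8 factors and of each related list, filled where the limma-trend adjusted p is under 0.05, with the median as a bar. The points lie on both sides of 0 in each list, and the medians lie between -0.19 and -0.019.

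Factors of other lineages were lower where they passed, with 3 of 9 tested genes of 10 called and 0 higher (median -0.16), a share of 33.3% against 34.6% of all genes. With the replicate block 4 were lower and 0 higher, where 46.0% of all genes were called (22.7% lower and 23.3% higher). Foxc1 was the gene added by the block (-0.17, limma-trend adjusted p = 0.025). The 3 called without the block were Cebpa (-0.87), an adipocyte factor, Ebf3 (-0.72), a factor of marrow stroma, and Sox9 (-0.58), the factor of cartilage. Their limma-trend adjusted p values without the block were 0.0022, 0.0061 and 0.00071.

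Transcripts of other cell types were compared beside these results. Of all genes, 34.6% were called without the block (16.5% lower and 18.0% higher) and 46.0% with it (22.7% lower and 23.3% higher). Of the blood markers 1 of 7 tested was called, Lyz2, which was higher (0.56), while the median of the list was -0.26. With the block 3 were lower and 1 higher. The lower ones were Csf1r (-0.59, limma-trend adjusted p = 6.7e-09), Itgam (-0.46, adjusted p = 0.0011) and Cd68 (-0.28, adjusted p = 0.0028). The endothelial markers summed to 2.23 to 3.33 CPM in hypoxia and 1.98 to 2.54 CPM in normoxia, with Emcn at 0, and 0 of 3 tested were called. The chondrocyte markers had 1 lower and 1 higher of 4 tested (2 and 1 with the block) and summed to 4579 to 6296 CPM in hypoxia and 4028 to 4860 CPM in normoxia. Adipocyte markers (0 of 4 called, with sums of 35.3 to 82.8 and 61.4 to 151 CPM) overlapped between the groups. With the block 2 of them were higher, Lpl (0.70, limma-trend adjusted p = 7.7e-07) and Cd36 (0.63, adjusted p = 5.7e-06). Adipoq (-0.62, adjusted p = 0.11) and Fabp4 (-0.19, adjusted p = 0.35) went the other way in that fit without passing. Fabp4 passed as lower when GC content and length were corrected as well (-0.39, adjusted p = 0.043). Muscle markers were lower in normoxia without overlap, at 1.53 to 1.95 and 0.760 to 1.12 CPM in sum, with 1 of 2 tested called and Myog and Ckm at 0. Of the 10 MSC markers 1 was lower and 3 were higher (40.0% called), with 4 and 5 in the paired fit. The part of these cells in the changes of the 8 factors was not tested.

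For each factor, the genes with the closest profile were sought among 9395 genes with a mean log2 CPM of at least 3, by the root mean square distance of centred log2 CPM over the 8 samples. Sp7 was nearest to Dhcr7 (0.087), an enzyme of cholesterol synthesis, and Gstm4 (0.10), and 248 genes lay within 0.2 of it. Runx2 was nearest to Afap1 and Fam117b (0.041 each), with 3310 genes within 0.2. Dlx5 was nearest to Map2k2 (0.040) and Ints5 (0.051), and Twist1 to Nelfb (0.012) and Tspyl1 (0.035). Msx1 had Fgd4 (0.12) and Enpp4 (0.15) as its neighbours. No gene came within 0.2 of Dlx3, Msx2 or Twist2, whose nearest were Atn1 (0.21) and Dtd2 (0.21), Ulbp1 (0.23) and Usp50 (0.28), and Tstd3 (0.31) and Fpgt (0.32). A small distance is common for a gene that varied little, as the counts of neighbours show.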

How the data were processed

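The authors prepared RNA-seq libraries and, per the labels and their methods, processed the reads with zUMIs 2.2.1, STAR 2.6.1a, samtools 1.9 and featureCounts of Rsubread 1.32.4 on mm10 with Ensembl annotation (release 91). They deposited raw counts per gene, which are whole numbers and not normalized. Symbols came from GENCODE M21 on GRCm38 and were found for 53360 of 53465 identifiers. Whether the counting used strand is not stated.

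After the study's methods, genes were kept by filterByExpr with a minimum count of 5 in edgeR 4.0.16 (99.9% of counts). TMM-scaled log2 CPM with a prior count of 3 were compared by limma-trend (limma 3.58.1, R 4.3.3). This prior understates changes of genes with few counts. Fits with the replicate number as a block were alternatives, as were the edgeR quasi-likelihood test, DESeq2 1.42.0, limma-voom, other scalings, filters and priors, and leaving out samples. Same-numbered samples deviated together from their group means (correlations across 14369 genes of 0.47, 0.28, 0.25 and 0.17), and the study split sorted cells between oxygen levels, so the numbers were taken as pairs. Ratios used counts plus 0.5.

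The members and lists were chosen with earlier results of these data known. Genes named are the 8 factors, Cbfb, up to 4 called genes of each list with the largest change, the 2 nearest profiles of each factor, and markers. Some further genes of the lists were named after their values were seen. Some genes that this rule names are not reported here.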

Additional observations from a re-analysis of the deposited data

Results flagged for a closer look

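Of 30 sets of 4 samples searched, 3 had a sample whose gap to the nearest other exceeded Dixon's 95% limit, where chance gives about 1.5. Msx2 in normoxia replicate 3 was at 1.201 log2 CPM, and the other 3 normoxia samples lay between 1.63 and 1.69. Runx2 in hypoxia replicate 2 was at 5.97 log2 CPM, and the other 3 hypoxia samples lay between 5.74 and 5.78. Hypoxia replicate 1 held 25132141 counts, and the other 3 samples of its group held 12929564 to 13219647.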

How the results depend on the processing

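The low counts of Dlx3, Msx1, Msx2 and Twist2 limit what these samples can show, and GC content, length and oxygen level could not be fully separated, since a real change that tracks either property is taken out with the correction. Runx2 and Sp7 kept their direction and stayed past the threshold in 22 of 22 alternatives each, with changes from -0.38 to -0.30 and from -0.91 to -0.70.

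The number of members called lower stayed within 1.5 times its main value (2 to 4). The number called higher was 0, but 1 with the replicate block, 3 with the block and the correction, 0 to 1 when 1 sample was left out, and 1 when both samples of a number were left out of the paired fit (chosen after seeing the data). Dlx3 was no longer past the threshold with the block and the correction (-0.59, adjusted p = 0.058), with DESeq2 (-0.84, adjusted p = 0.060) and without a filter (-0.74, adjusted p = 0.10), and ranged from -0.87 to -0.56 with 1 sample left out and from -0.92 to -0.45 with a pair left out of the block fit. Dlx5 passed with the replicate block (-0.28) and was -0.34, -0.33, -0.26 and -0.22 with a pair left out (past the threshold in 2 of 4). Msx1 passed with the block and the correction (0.53). Msx2 passed with the block (0.82) and with the correction added (0.79), and ranged from 0.54 to 1.10 with 1 sample and was 0.65, 0.75, 0.83 and 1.05 with a pair left out. Twist1 reversed with the block and the correction (0.14). Twist2 ranged from -0.029 to 0.35 with 1 sample and from -0.16 to 0.54 with a pair left out (-0.044 without pair 2), and never passed. The cause of these shifts was not tested.

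All tested genes called numbered 4970, 6610 with the block and 3838 to 5423 with 1 sample left out. The block changed no other call of a member. The 6 ratios kept their direction in 11 alternatives each, and none had an adjusted exact permutation p under 0.05 there, although with 1 sample left out the unadjusted p was 0.0286 in 8 of 8 for Runx2 to Twist1 and ranged from 0.0286 to 0.0571 for Runx2 to Sp7.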
